A study of Mus musculus with 4 samples.

Results

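The genes described here are 7 somatic linker histone genes given by symbol, 5 cluster H1 genes (Hist1h1a, Hist1h1b, Hist1h1c, Hist1h1d and Hist1h1e) and the 2 replacement linkers H1f0 and H1fx. All 7 were among the 20065 genes of the deposited table, and all 7 passed the filter on low values. RNA had been sequenced from cultured muscle stem cells (MuSC, satellite cells) of limb and trunk muscles of adult C57BL/6 mice, with 2 control and 2 Prmt5sKO libraries. Control cells were Pax7CreERT2/Prmt5+/loxP (+TAM) and Prmt5sKO cells Pax7CreERT2/Prmt5loxP/loxP (+TAM). Both groups therefore carried the tamoxifen-inducible Cre driven by the Pax7 locus and both received tamoxifen, which the study's methods describe as given in culture, and the control group, whose genotype label reads wild type, carried 1 floxed Prmt5 allele. The study asked what the arginine methyltransferase Prmt5 does in these cells, and the comparison here is between cells with 1 and with 2 floxed Prmt5 alleles after Cre had been induced. How many animals stood behind each culture is not given in the sources used here, so all p-values measure the spread between 2 libraries a group, which may be technical.

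Linker histones bind DNA where it enters and leaves the nucleosome and favour the folding of chromatin into more compact forms. The cluster H1 genes lie among the core histone genes, are transcribed mainly in S phase, and give mRNAs that end in a stem-loop rather than a poly(A) tail. The replacement linkers H1f0 and H1fx are transcribed outside S phase as well and give polyadenylated mRNAs, and H1f0 is known to accumulate in cells that leave the cycle and differentiate. In myoblasts, the product of Hist1h1b is known to act with Msx1 in the repression of Myod1.

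Reads counted on the genes of the deposited table came to 13240754 to 20047430 a library, which is fewer than were sequenced. Within each group the libraries are called deeper and shallower by these counted reads, since the columns carry no replicate number. Wherever a group has a pair of values, the deeper library comes first. Sequencing runs took 2 libraries each, and which libraries shared a run is not given in the sources used here. Ribosomal RNA had been depleted from total RNA, a preparation that keeps mRNAs without a poly(A) tail. Prmt5 itself had normalised read counts of 2273 and 2906 in control MuSC against 244 and 202 in Prmt5sKO MuSC, a log2 fold change of -3.52 ± 0.27 (SE; adjusted p = 0.193 in limma-voom). All 7 satellite cell and myoblast markers were present in every library (Pax7 at 2570 to 3664), with a median log2 fold change of 0.01. The shallower Prmt5sKO library stood apart: 20 muscle differentiation genes summed to 524492 in it, against 78167 in the deeper Prmt5sKO library and 78103 and 121284 in the control libraries. Ttn and Chrna1 made up most of the lower sums (28427 and 25767 in the deeper Prmt5sKO library). Gene by gene, 15 of 20 were higher in both Prmt5sKO libraries, as were 25.2% of all genes tested. Markers of other cell types were low: summed normalised counts over all libraries were 162 to 378 for 6 fibroblast markers and 28.2 to 52 for 4 Schwann cell markers. For 5 endothelial markers control MuSC had sums of 124 and 166 and Prmt5sKO MuSC of 91.9 and 57.3. The 3 of 7 immune markers that the table holds summed to 104 and 130 against 60.8 and 72.4. Both sums were lower in the Prmt5sKO group, as the cluster H1 genes were, but the single markers were not all lower. Pecam1 and Kdr were lower in both Prmt5sKO libraries, while Tek was higher (13.6 and 27.2 in control against 43 and 29.2). Cd68 made up most of the immune sums (99.4 and 112 against 54.8 and 50.3), and Itgam was at 4.52 and 0 against 3.7 and 22.1. The part of other cell types in the linker histone values was not tested. The pan-leukocyte gene Ptprc was not in the table, Cdh5 was at 0 in the shallower Prmt5sKO library and Lum at 0 in 3 of 4 libraries. In the shallower control library Lum was at 27.2, Cdh5 at 14.3 and Dcn at 115, where Dcn was at 7.91 to 16.1 in the others. Col1a1 reached 328 in the shallower Prmt5sKO library. Of 16212 genes tested by limma-voom, 0 (0% of the genes tested) had an adjusted p of at most 0.05 with a fold change of at least 2, the smallest adjusted p being 0.193, while 2101 had an unadjusted p under 0.05. Without the deeper Prmt5sKO library 489 genes were called, Hist1h1a, Hist1h1b, Hist1h1c and Hist1h1d among them. Without the shallower Prmt5sKO library 55 were called, with Hist1h1b, Hist1h1c, Hist1h1d and Hist1h1e among them, and without either control library 0 were called.

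Promoter sequence differed between the cluster H1 genes and the replacement linkers. The 130 bases before each RefSeq start site are shown so that this difference can be seen beside the expression values that come after it. They are read 5′ to 3′ on the strand of the gene, from RefSeq on GRCm38.p6, where all 7 genes matched. Farthest from the start, the capitals mark AAACACA, the H1 box of linker histone promoters. Next comes ACCAATCA, which holds the CCAAT box. Nearest to the start is the TATA-like element TATANA, whose overlapping copies run together. The motifs were chosen after the sequences had been seen.
Hist1h1a: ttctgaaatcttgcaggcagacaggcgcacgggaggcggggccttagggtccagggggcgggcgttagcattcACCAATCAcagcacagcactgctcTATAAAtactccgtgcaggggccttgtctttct
Hist1h1b: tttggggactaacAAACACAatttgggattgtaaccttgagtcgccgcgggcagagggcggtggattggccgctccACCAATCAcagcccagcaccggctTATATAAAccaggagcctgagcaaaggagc
Hist1h1c: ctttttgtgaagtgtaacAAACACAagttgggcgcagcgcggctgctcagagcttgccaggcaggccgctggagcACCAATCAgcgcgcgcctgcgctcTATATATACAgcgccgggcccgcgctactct
Hist1h1d: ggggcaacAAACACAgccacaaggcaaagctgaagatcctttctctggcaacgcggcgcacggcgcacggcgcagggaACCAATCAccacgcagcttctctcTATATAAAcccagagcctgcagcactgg
Hist1h1e: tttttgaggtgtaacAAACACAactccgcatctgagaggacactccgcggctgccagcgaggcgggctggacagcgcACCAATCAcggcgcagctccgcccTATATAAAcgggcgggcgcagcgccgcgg
H1f0: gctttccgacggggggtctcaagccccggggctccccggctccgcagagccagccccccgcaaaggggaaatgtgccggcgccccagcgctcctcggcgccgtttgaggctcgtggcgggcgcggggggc
H1fx: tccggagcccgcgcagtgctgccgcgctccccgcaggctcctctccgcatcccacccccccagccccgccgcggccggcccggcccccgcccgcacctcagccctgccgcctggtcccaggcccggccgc

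The windows are chr13:23763538-23763667 (+ strand) for Hist1h1a, chr13:21780626-21780755 (− strand) for Hist1h1b, chr13:23738677-23738806 (+) for Hist1h1c, chr13:23554902-23555031 (+) for Hist1h1d, chr13:23622559-23622688 (−) for Hist1h1e, chr15:79028082-79028211 (+) for H1f0 and chr6:87981483-87981612 (−) for H1fx. The windows of Hist1h1d and H1fx lie within their GENCODE gene models, and the RefSeq start of H1f0 lies upstream of its model. In the 250 bases before the start, ACCAATCA and TATANA were present on the gene's own strand in 5 of 5 cluster H1 genes and in neither replacement linker. Only RefSeq starts were searched, so the absence in H1f0 and H1fx holds for those starts. ACCAATCA began between 57 and 52 bases before the start in all 5. The H1 box AAACACA was present in Hist1h1b, Hist1h1c, Hist1h1d and Hist1h1e, where it began between 122 and 112 bases before the start, and was not found in the window of Hist1h1a, H1f0 or H1fx. Over 32851 RefSeq promoters, the 250 bases on the gene's strand held AAACACA in 3.17%, ACCAATCA in 0.953% and TATANA in 16.4%. On either strand the shares were 6.25% for AAACACA, 1.96% for ACCAATCA and 22.6% for TATANA. ACCAATCA and TATANA occurred together, on the gene's strand, in 59 promoters (0.18%), and all 3 motifs in 8 (0.0244%). The 130 bases were 55.4% to 63.8% G or C in the cluster H1 genes, 76.9% in H1f0 and 83.8% in H1fx.

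**Figure D1:**
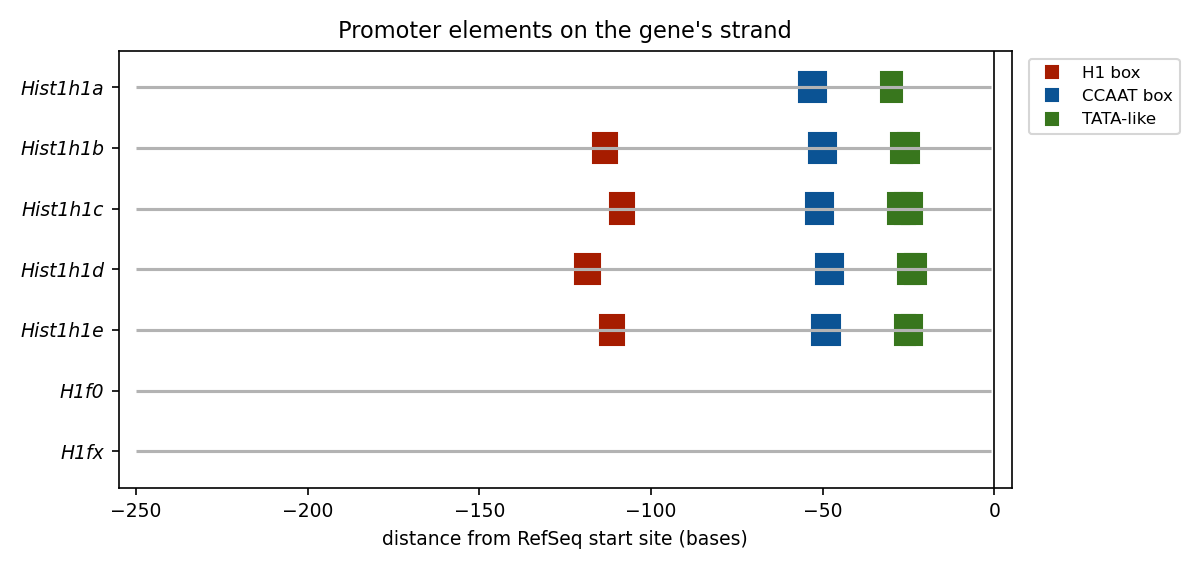
Positions of the 3 promoter elements in the 250 bases before the RefSeq start site of each linker histone gene, with distance from the start in bases on the x axis, 1 gene per line and elements on the gene's strand. The 5 cluster H1 genes share the CCAAT and TATA-like elements at nearly the same distance, 4 of them carry an H1 box farther upstream, and the lines of H1f0 and H1fx are empty.

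At the other end of the transcripts lies the histone stem-loop, near which replication-dependent histone mRNAs are cut. It is shown as the longest run of letters that the cluster H1 transcripts of GENCODE M21 share after their stop codons, 15 in all. The run ends at base 741, where the transcript model of Hist1h1a ends, so it may stop short of the full stem-loop. These letters were taken from the cluster transcripts themselves, so their presence there was fixed in advance.
Stem-loop of Hist1h1a, Hist1h1c, Hist1h1d and Hist1h1e: GGCTCTTTTCAGAGC
It began 33 bases after the stop codon in Hist1h1a, 24 in Hist1h1c, 31 in Hist1h1d and 40 in Hist1h1e. The transcript model of Hist1h1b ends at its stop codon, so that its stem-loop is not covered, and the letters were not in the models of H1f0 and H1fx. The models of Hist1h1c, Hist1h1d and Hist1h1e run on for 880, 4931 and 1209 bases after the stop codon, past these letters. Of 55341 annotated genes, 33 (0.0596%) held these letters, and 27 of those carried a Hist symbol. All 7 genes have a single exon on GRCm38: Hist1h1b (ENSMUSG00000058773) at chr13:21779883-21780625, Hist1h1d (ENSMUSG00000052565) at chr13:23553262-23560686, Hist1h1e (ENSMUSG00000051627) at chr13:23620629-23622558, Hist1h1c (ENSMUSG00000036181) at chr13:23738808-23740367 and Hist1h1a (ENSMUSG00000049539) at chr13:23763666-23764406. H1f0 (ENSMUSG00000096210) lies at chr15:79028450-79030504 and H1fx (ENSMUSG00000044927) at chr6:87980421-87981637.

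In Prmt5sKO MuSC the cluster H1 genes were lower: in 5 of 5 the groups did not overlap, and between 22.4% and 42.4% of the control level remained. In 3830 of all genes tested (23.6%) both Prmt5sKO libraries lay below both control libraries. The median log2 fold change of the 5 genes was -1.77, against 0.02 over all genes tested. An unadjusted p under 0.05 with a lower level was found for 5 of 5, against 1126 of all genes tested (6.95%), the log2 fold change was -1 or less in 5 of 5, against 1467 (9.05%), and 0 of 5 passed the call, with adjusted p between 0.198 and 0.299 in limma-voom. In bulk samples fewer cells expressing these genes and less of their RNA per cell cannot be told apart.

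Hist1h1b, which encodes the H1.5 protein, had the lowest fold change of the 7. Its normalised read counts were 5959 and 9234 in control MuSC and 1408 and 1966 in Prmt5sKO MuSC. The groups did not overlap, although the control libraries themselves differed by 0.63 on the log2 scale. The log2 fold change was -2.16 ± 0.30 (SE; 95% interval -2.89 to -1.43), with an unadjusted p of 0.000334 and an adjusted p of 0.198 in limma-voom.

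Hist1h1d, which encodes the H1.3 protein, had the smallest standard error. Control MuSC had normalised counts of 5563 and 5287, and Prmt5sKO MuSC of 1265 and 1655. Each Prmt5sKO library was below each control library, with the larger spread in the Prmt5sKO group. The log2 fold change was -1.91 ± 0.22 (SE; 95% interval -2.45 to -1.36), with an unadjusted p of 0.000132, the smallest of the 7, and an adjusted p of 0.198 in limma-voom.

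Hist1h1a encodes the H1.1 protein, and among the cluster genes it alone lacked the H1 box in the window. Counts of 5079 and 7978 in control MuSC stood against 2138 and 1623 in Prmt5sKO MuSC. Here the shallower Prmt5sKO library was the lowest of the 4, whereas in the other 4 cluster genes the deeper Prmt5sKO library was the lowest. The log2 fold change was -1.77 ± 0.29 (SE; 95% interval -2.48 to -1.06), with an unadjusted p of 0.000847 and an adjusted p of 0.203 in limma-voom.

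Hist1h1c, which encodes the H1.2 protein, had normalised counts of 5323 and 5756 in control MuSC and 1411 and 2514 in Prmt5sKO MuSC. The control libraries were close together and the Prmt5sKO libraries were not. The log2 fold change was -1.56 ± 0.31 (SE; 95% interval -2.31 to -0.80), with an unadjusted p of 0.00231 and an adjusted p of 0.231 in limma-voom.

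Hist1h1e encodes the H1.4 protein and had the most reads per kilobase of the 7 in every library with RefSeq lengths. In control MuSC it had normalised counts of 10160 and 9737, in Prmt5sKO MuSC of 2890 and 6113. On the log2 scale the shallower Prmt5sKO library was closer to the control libraries than to the other Prmt5sKO library. The log2 fold change was -1.24 ± 0.37 (SE; 95% interval -2.14 to -0.34), with an unadjusted p of 0.0151 and an adjusted p of 0.299 in limma-voom. Without the deeper Prmt5sKO library the log2 fold change was -0.70, and without the shallower one it was -1.78. The annotated gene overlaps Hist1h2be and Gm11398 on the same strand, and the authors' counting left out reads that fell on several genes or several places.

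Of the replacement linkers, H1f0 was lower in both Prmt5sKO libraries by a narrow margin and H1fx overlapped between the groups. Neither had an unadjusted p under 0.05, and their median log2 fold change was -0.56. H1f0 had normalised counts of 1034 and 942.8 in control MuSC and 617.2 and 920.2 in Prmt5sKO MuSC. The higher Prmt5sKO library reached 97.6% of the lower control library, so that most of the difference lay in the deeper one. The log2 fold change of H1f0 was -0.40 ± 0.26 (SE; 95% interval -1.05 to 0.24), with an adjusted p of 0.532 in limma-voom, and was -0.10 without the deeper and -0.68 without the shallower Prmt5sKO library. H1fx was the least expressed member, with normalised counts of 145.8 and 85.59 in control and 54.09 and 92.52 in Prmt5sKO MuSC, from 66 to 129 reads a library. Its log2 fold change was -0.72 ± 0.50 (SE; 95% interval -1.94 to 0.51), with an adjusted p of 0.556 in limma-voom. Single libraries decided its size: it was -0.29 without the deeper Prmt5sKO, -0.32 without the deeper control and -1.07 without the shallower control library. An interval this wide holds the fold changes of all cluster H1 genes but Hist1h1b, and the difference between H1fx and them was not tested. H1f0 and H1fx overlap antisense genes (Gm49544 and Gm5577), and whether the counting used strand is not given in the sources used here, without which their reads cannot be told apart.

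**Figure D2:**
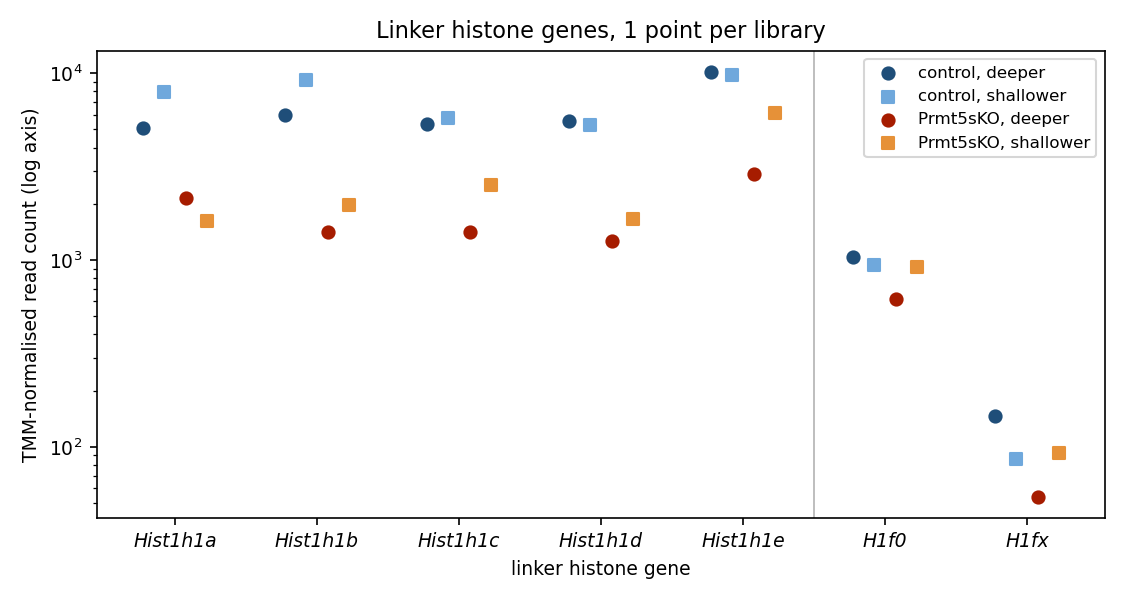
TMM-normalised read counts of the 7 linker histone genes on a log axis, 1 point per library, with control libraries in blue and Prmt5sKO libraries in red and orange. All 4 libraries separate by group in the 5 cluster H1 genes, the gap nearly closes for H1f0 (920.2 against 942.8), and the groups overlap for H1fx.

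The spread within the groups was not shared by all members. From the deeper to the shallower Prmt5sKO library the log2 difference was 1.08 for Hist1h1e, 0.83 for Hist1h1c, 0.48 for Hist1h1b, 0.39 for Hist1h1d and -0.40 for Hist1h1a. H1f0 differed by 0.58 and H1fx by 0.77 between the same libraries. Between the control libraries the log2 difference was 0.65 for Hist1h1a and 0.63 for Hist1h1b, and from -0.07 to 0.11 for Hist1h1c, Hist1h1d and Hist1h1e. Only Hist1h1a was lower in the shallower than in the deeper Prmt5sKO library. How many of all genes tested were higher in the shallower one was not counted, so the direction of the other members is a description only. The muscle differentiation genes had a median log2 difference of 3.68 over 20 genes between the deeper and the shallower Prmt5sKO library. Their part in the linker histone values was not tested. The core histone genes of the Hist1 cluster had a median log2 difference of -0.02 between the same 2 libraries.

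**Figure D3:**
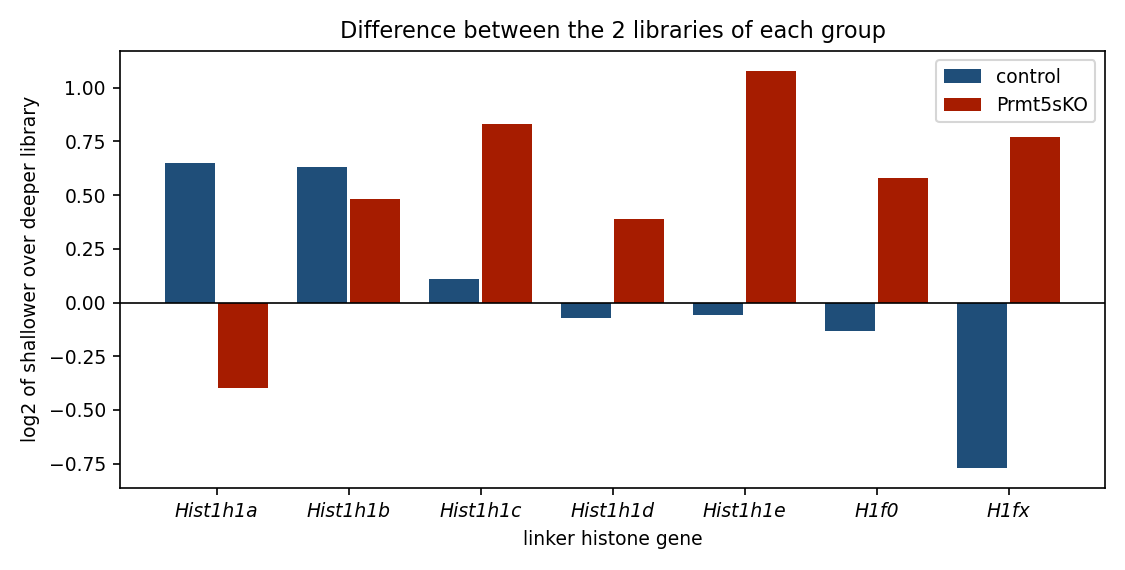
Log2 of the shallower over the deeper library within the control (blue) and Prmt5sKO (red) group for each linker histone gene, with 0 meaning equal normalised counts. The Prmt5sKO bars reach 1.08 in Hist1h1e and lie below 0 in Hist1h1a only, while the control bars are large only in Hist1h1a, Hist1h1b and H1fx.

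Summed over the 5 cluster H1 genes, normalised counts were 32083 and 37991 in control MuSC and 9112 and 13871 in Prmt5sKO MuSC, from 12299 to 29295 reads a library. Linker histone mRNA was lower together with the core histone mRNA of the same cluster. Of 35 core histone genes tested, 33 were lower in both Prmt5sKO libraries, as were 23.6% of all genes tested. An unadjusted p under 0.05 with a lower level was found for 31, against 6.95% of all genes tested. The median log2 fold change was -1.66. Cluster H1 reads per core histone read were 0.622 and 0.575 in control MuSC and 0.497 and 0.772 in Prmt5sKO MuSC. The Prmt5sKO ratios lay on both sides of the control ratios, so that the groups overlapped. Among the core genes with a mean of at least 50, Hist1h2ak (-2.87) and Hist1h4j (-2.73) had the lowest log2 fold changes and Hist1h4n (-0.55) and Hist1h4i (-0.54) the highest, none of them called.

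Because the fold changes of the cluster genes lay further below 0 than that of H1f0, the make-up of the linker histone mRNA was also compared, as reads per kilobase within each library, which needs no scaling between libraries. H1f0 and H1fx together made up 2.5% and 1.6% of the linker histone reads per kilobase in control MuSC and 4.48% and 5.05% in Prmt5sKO MuSC with GENCODE M21 gene lengths. Both Prmt5sKO libraries were above both control libraries. The means were 2.05% ± 0.64 and 4.77% ± 0.408 (SD, n = 2 each), and the difference of 2.72 percentage points gave p = 0.333 in a two-sided exact permutation test, the smallest p that 2 against 2 libraries allow. With RefSeq lengths control MuSC had shares of 1.39% and 0.983% and Prmt5sKO MuSC of 2.62% and 2.63%. The log2 ratio of H1f0 to the summed cluster H1 genes was -5.59 and -6.15 in control and -4.61 and -4.46 in Prmt5sKO MuSC, higher by 1.34 on average (p = 0.333, two-sided exact permutation test, the smallest possible). Share and ratio restate the fold changes already seen in the same libraries. Their direction was therefore fixed in advance, and the permutation tests add no separate evidence.

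Among the cluster genes, the shares of Hist1h1e, Hist1h1a and Hist1h1c overlapped between the groups. With RefSeq lengths, Hist1h1e made up 30.6% and 24.9% of linker histone reads per kilobase in control MuSC and 30.2% and 42.1% in Prmt5sKO MuSC. Hist1h1a made up 16.1% and 21.4% in control and 23.5% and 11.7% in Prmt5sKO MuSC, so that both genes differed by more within the Prmt5sKO group than between the groups' means. The shares of Hist1h1b did not overlap, with 17.7% and 23.2% in control and 14.5% and 13.3% in Prmt5sKO MuSC. Those of Hist1h1d, 16.9% and 13.6% against 13.3% and 11.5%, did not overlap with RefSeq lengths but did with GENCODE M21 lengths.

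The order of the members by level depended on the gene model. With RefSeq lengths the control means in normalised reads per kilobase were 12722 ± 383 for Hist1h1e, 9567 ± 2916 for Hist1h1b, 8763 ± 2752 for Hist1h1a, 7640 ± 422 for Hist1h1c and 6991 ± 251 for Hist1h1d (SD, n = 2 each). Hist1h1b and its neighbour Hist1h1a did not differ beyond their spread, and neither did Hist1h1a and Hist1h1c. Far below them stood H1f0 at 431 ± 28.1 and H1fx at 109 ± 40.1. In the Prmt5sKO libraries Hist1h1e was again first, at 5756 ± 2914, and the other cluster genes lay between 1882 and 2707, within their spread of each other. H1f0 was at 335 ± 93.4 and H1fx at 69.0 ± 25.6 there. With GENCODE M21 lengths Hist1h1e was not first in control MuSC (5155 ± 155, after Hist1h1b at 10224 ± 3117 and Hist1h1a at 8810 ± 2767), and in Prmt5sKO MuSC its 2332 ± 1181 was within the spread of Hist1h1a at 2538 ± 492. Hist1h1d dropped to 731 ± 26.3 in the control libraries, since its annotated model spans 7425 bases against 776 in RefSeq, still above H1f0 at 481 ± 31.4. In Prmt5sKO MuSC that order was turned, with Hist1h1d at 197 ± 37.2 and H1f0 at 374 ± 104. The transcripts of the cluster genes are alike in part: 33.4% of the 40-base windows of Hist1h1e (overlapping genes included), 9.8% of those of Hist1h1c and 2.79% of those of Hist1h1d also occur in transcripts of other genes, against 1.14% for Hist1h1b and 0% for Hist1h1a. For H1fx the share was 14.8% and for H1f0 6.15%, in both with the antisense gene. These are shares of the GENCODE M21 model, which for Hist1h1d is far longer than in RefSeq, so they do not rank the genes. Levels of all genes that share windows are uncertain to that extent, since reads that matched several places were left out.

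**Figure D4:**
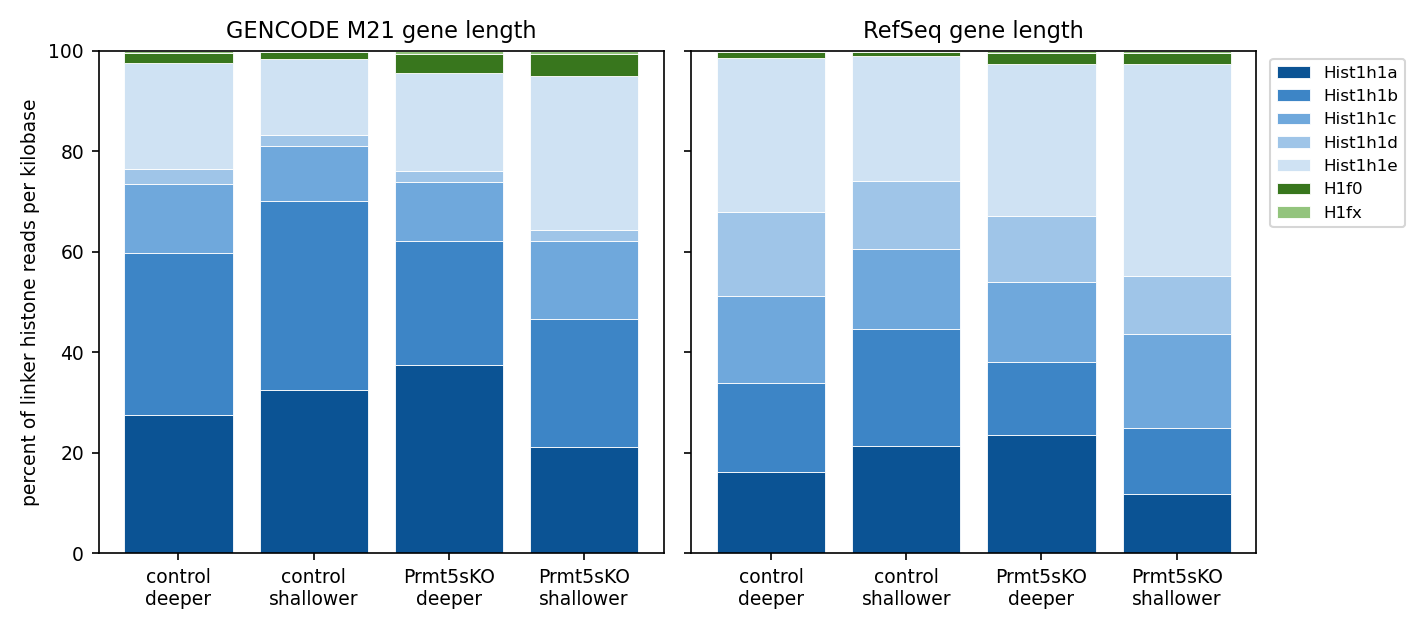
Percent of linker histone reads per kilobase taken by each of the 7 genes in each library, with GENCODE M21 gene lengths on the left and RefSeq lengths on the right. The green segments of H1f0 and H1fx are thicker in both Prmt5sKO libraries (4.48% and 5.05% on the left) than in the control libraries (2.5% and 1.6%), and Hist1h1e takes its largest share in the shallower Prmt5sKO library.

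Genes that act on linker histones or on histone mRNA had smaller median differences than the cluster H1 genes. Of 18 chaperones and chromatin proteins that carry linker histones or compete with them, 12 were lower in both Prmt5sKO libraries and 1 higher. Over all genes tested these shares were 23.6% and 25.2%. An unadjusted p under 0.05 was found for 6 with a lower level and 0 with a higher level. Over all genes tested these shares were 6.95% and 6.01%. The median log2 fold change of the 18 was -0.51. Nasp, a chaperone of linker and other histones, had counts of 3647 and 4741 in control and 1835 and 1720 in Prmt5sKO MuSC (log2 fold change -1.23 ± 0.22, SE). The nucleolar chaperone Npm1 was at -1.10 and the nucleosome-binding protein Hmgn3 at 0.58. Of 10 enzymes and readers, 6 were lower in both Prmt5sKO libraries (23.6% of all genes tested) and 1 was higher (25.2%). An unadjusted p under 0.05 with a lower level was found for 3 (6.95% of all genes tested), and the median was -0.47. The mitotic kinases Aurkb (-1.39) and Cdk1 (-0.94) were lowest among the genes with a mean of at least 50, and the lysine demethylases Kdm4a (0.27) and Kdm4b (0.30) highest.

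Of 11 factors of histone gene transcription and mRNA processing, 7 were lower in both Prmt5sKO libraries (23.6% of all genes tested). An unadjusted p under 0.05 with a lower level was found for 3 (6.95% of all genes tested), and the median log2 fold change was -0.41. Slbp, which binds the stem-loop, had counts of 836 and 932 in control and 599 and 517 in Prmt5sKO MuSC (log2 fold change -0.66 ± 0.22, SE; adjusted p = 0.327 in limma-voom). Casp8ap2, a factor of histone locus bodies, was at -0.83, the scaffold of the cleavage complex Sympk at -0.13 and Lsm10, a subunit of the U7 particle, at 0.02. Among S-phase genes, 32 of 33 were lower in both Prmt5sKO libraries (23.6% of all genes tested). An unadjusted p under 0.05 with a lower level was found for 30 (6.95% of all genes tested), and the median of the list was -1.15. The replication licensing factor Cdt1 (-2.23) and the uracil glycosylase Ung (-1.99) were lowest, and the ribonucleotide reductase subunit Rrm1 (-0.53) and the replication clamp Pcna (-0.43) highest. The part of the S-phase genes in the linker histone result was not tested. Slbp stands in this list as well as in the preceding one. None of these genes was called, and the lists were described without a test.

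**Figure D5:**
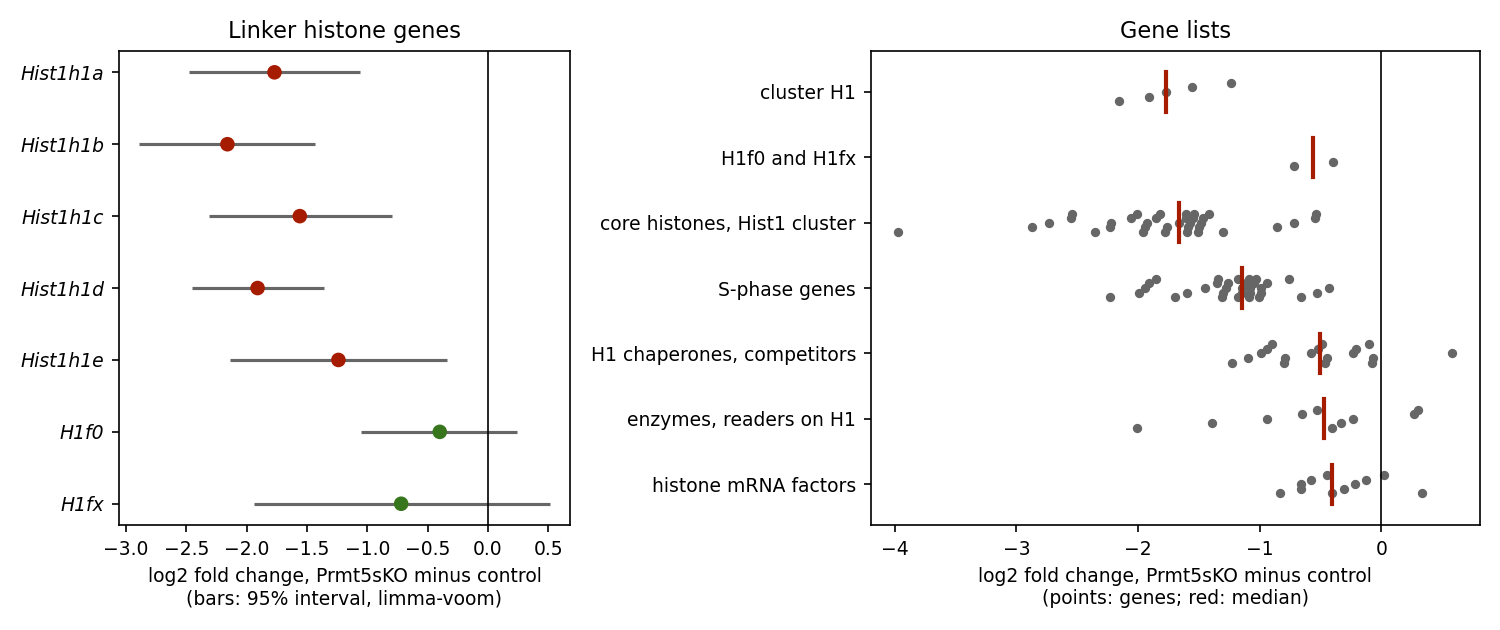
Left, log2 fold change of each linker histone gene, Prmt5sKO minus control, with the 95% interval from limma-voom. Right, log2 fold changes of the genes of each list (points) with the list's median (red line). The intervals of the 5 cluster H1 genes lie below 0 and those of H1f0 and H1fx reach above it, and the medians run from -1.77 for cluster H1 and -1.66 for core histones to -0.41 for histone mRNA factors.

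By Euclidean distance between centred log2 counts over the 4 libraries, among 11480 genes of mean count at least 50, the genes nearest the mean profile of the cluster H1 genes were Syne2 (0.0765), Bend4 (0.161), Hist1h4d (0.198), Hist1h2bf (0.206) and Cdc6 (0.208). Their log2 fold changes were -1.68, -1.83, -1.82, -1.55 and -1.94. Within the family, Hist1h1d (0.299) and Hist1h1c (0.32) were nearest to that profile, then Hist1h1b (0.507), Hist1h1a (0.681) and Hist1h1e (0.682), while H1fx (1.31) and H1f0 (1.37) were farthest. The 5 cluster genes form that profile and the replacement linkers do not, so this order is in part fixed by its construction. Nearest to H1f0 were Ppp1r9b (0.0472), Wdr82 (0.052), Cdk16 (0.0589), Cfap20 (0.0762) and Ptprn (0.0857), all of them lowest in the deeper Prmt5sKO library. With 4 libraries and this many genes, close profiles are a description only.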

How the data were processed

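RNA from 4 cultures had been sequenced on an Ion Torrent Proton after ribosomal RNA depletion. Per the labels, the authors used STAR 2.4.0a, DESeq2 1.62 and GRCm38 (mm10), and reads on several genes or places were left out of the counts, per the study's supplement. As signal, the deposited table gives group means, which the authors took over counts divided by size factors. The deposited log2 fold changes, their standard errors and the p-value columns are the authors' own comparison and were not used.

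Because each group mean is that of 2 whole counts, each divided by its size factor, whole reads per library were recovered for 20065 of 20065 genes in both groups (largest relative residual 5.07e-15). Libraries were assigned to groups, not to replicate numbers. Since the file holds group means, limma-voom (limma 3.58.1, R 4.3.3) replaced the count test that raw count tables would take, and it was tested on simulated data. Within each simulation all libraries shared the same dispersion, so a library that stands apart from its group was not covered. TMM factors (trims of 30% and 5%), a mean normalised count of at least 5, Benjamini-Hochberg adjustment over 16212 genes, and calls at an adjusted p up to 0.05 with a fold change of 2 or more were used. The lowest overall mean in the table is 0.9. Symbols came from GENCODE M21, which matched 19782 identifiers. Promoters and second gene lengths came from RefSeq.

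The members and all gene lists were chosen with earlier results of these data known. All 7 members are described. From each other list the 2 lowest and 2 highest genes by log2 fold change, at a mean of at least 50, are named, and the genes nearest in profile to the cluster H1 genes and to H1f0; 1 gene named by this rule is not reported here. Proteins were not analysed here.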

Additional observations from a re-analysis of the deposited data

How the results depend on the processing

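The 13 alternatives were other scalings (median of ratios, upper quartile, library size), no filter or a mean of at least 20, limma-trend, thinning to the smallest total, 2 replicate blocks and leaving out each library. All 7 members kept their direction in 13 of 13. Scaling by library size moved the median of all genes to 0.13 and that of the cluster H1 genes to -1.67. The count of called genes was 0 in 11 of 14 fits, with 2101 genes at an unadjusted p under 0.05 in the fit as reported. The causes of the higher counts were not tested. Leaving out 1 library gave 0 to 489 called genes: 55 without the shallower Prmt5sKO library and 489 without the deeper Prmt5sKO library, in fits with 1 residual degree of freedom that take the lone library to vary like the other group. Past the threshold were Hist1h1a in 2 alternatives, Hist1h1b, Hist1h1c and Hist1h1d in 3 each, Hist1h1e in 1 and H1f0 and H1fx in 0. Over the fits without single libraries the cluster median ran from -1.97 to -1.49, H1f0 from -0.68 to -0.10, H1fx from -1.07 to -0.29 and Hist1h1e from -1.78 to -0.70. The share difference of H1f0 and H1fx was 1.44 points with RefSeq lengths and 4.15 points with coding lengths, and ran from 2.27 to 3.17 points without single libraries. The log2 ratio difference ran from 1.06 to 1.62.

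The columns carry no replicate number, so the pairing is unknown. With a replicate block that pairs the deeper libraries, 0 genes were called and the cluster median was -1.77. Deviations in these pairs correlated at -0.30 over 11487 genes, and the crossed replicate block, chosen after seeing the data, called 346 genes, 4 of the 5 cluster H1 genes (all but Hist1h1e) among them. With 2 libraries a group, the exact tests could not reach a p under 0.333.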

Other observations

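Of 4 germline linker histone genes, 2 were in the table. Hist1h1t, the testis linker histone of the same cluster, had 7 and 4 reads in control MuSC and 2 and 5 in Prmt5sKO MuSC (deeper library first), and was too low to be tested. Hils1, a spermatid linker histone, had 6 and 5 reads in control and 74 and 26 in Prmt5sKO MuSC, with a log2 fold change of 2.46 ± 0.93 (SE), an unadjusted p of 0.0374 and an adjusted p of 0.355 in limma-voom. Both Prmt5sKO libraries were above both control libraries, as in 4086 of all genes tested (25.2%). Hils1 lies inside the muscle gene Sgca on the opposite strand, and Sgca had normalised counts of 503 and 213 in control and 829 and 1402 in Prmt5sKO MuSC (log2 fold change 1.68). Hils1 was highest in the deeper and Sgca in the shallower Prmt5sKO library, and the part of Sgca reads in the Hils1 counts was not tested. Of 4 male germ cell markers, 2 were in the table and summed to 0 to 13 normalised counts a library.

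Among the muscle differentiation genes, 15 of 20 were higher in both Prmt5sKO libraries, against 4086 of all genes tested (25.2%). An unadjusted p under 0.05 with a higher level was found for 4, against 975 of all genes tested (6.01%). Myh1, a fast myosin heavy chain, had normalised counts of 1140 and 219 in control and 1227 and 27597 in Prmt5sKO MuSC, and Ckm, the muscle creatine kinase, 39.6 and 14.3 against 116 and 1604. Chrna1, an acetylcholine receptor subunit, had a log2 fold change of 0.42 and Ttn, the giant sarcomere protein, one of 0.25. The median log2 fold change of the list was 2.89, and its size rests on the shallower Prmt5sKO library.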
